A study of Mus musculus with 14 samples.

Results

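The genes described here are the WNT ligands, their Frizzled and LRP receptors, the extracellular and intracellular modulators of the pathway and its TCF/LEF transcription factors. They were taken by name: all genes called Wnt with a number, all called Fzd with a number from 1 to 10, and 19 further named genes. This gave 48 of the 23174 rows of the table, made up of 19 ligands, 10 Frizzleds, 2 LRP co-receptors, 2 ligand-processing proteins, 9 extracellular antagonists, 2 intracellular feedback inhibitors and 4 TCF/LEF factors. No measured value entered the choice.

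The study followed mouse embryonic stem cells (ESCs) as they were converted to extraembryonic endoderm (XEN) cells, with and without the zinc-finger protein Zfp281, by polyA RNA-seq with paired reads in 14 libraries. Feeder-free ESCs of strain background 129S1/SVImJ, grown on gelatin with serum and leukemia inhibitory factor, came from 4 lines. WT3 is wild type. KO3.34 and KO2.6 carry the Zfp281KO genotype. Rescue3.34 is the KO3.34 line in which Zfp281 was restored. KO2.6 is named so from its title, although its cell line field gives another number. Each line gave 1 library as ESCs, 1 at cXENp1 and 1 at cXENp3. The cells called cXENp1 had been through passage 1 of chemical induction towards XEN, in which activin A (10 ng/mL) and all-trans retinoic acid (0.01 µM) were given for 48 hours. Those called cXENp3 had reached passage 3, back on gelatin after passage 2 on mitotically inactive fibroblast feeders (iMEF). XENB1 (strain background 129S1) and XEN5 (129S1/SVImJ) are wild-type XEN lines kept in medium conditioned by mouse embryonic fibroblasts. WT3 and Rescue3.34 are called Zfp281-present below and KO3.34 and KO2.6 are called KO, with 2 lines in each class. Nothing in the labels says that libraries came from repeated cultures, so no test holds a spread between cultures of 1 line. In comparisons of stages within the 4 ESC lines the spread is that of the change between lines. For cXENp1 against ESCs it is taken over the cXENp3 libraries too, so it also holds how the classes differ there. For XEN lines against ESCs it is that between lines of a group, with wild-type, rescued and KO ESCs as 1 group. When KO lines are compared with Zfp281-present or XEN lines at 1 stage, the spread is that between lines of a group, pooled over stages. The libraries of a line at different stages then count as independent.

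WNT proteins are lipid-modified by Porcn, an acyltransferase, and carried to the cell surface by Wls. They bind Frizzled receptors together with Lrp5 or Lrp6, which stops the destruction of beta-catenin and lets it act with TCF/LEF factors on target genes; other WNT proteins act through Frizzleds without beta-catenin. Secreted Frizzled-related proteins (Sfrp1, Sfrp2, Sfrp4, Sfrp5 and Frzb) bind WNT proteins. The Dickkopf proteins Dkk1 and Dkk2 bind LRP co-receptors, and Notum removes the lipid from WNT proteins. In mouse ESCs the pathway is known for its part in self-renewal, and in the early embryo for its part in forming the primitive streak.

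Values are FPKM as deposited, fragments scaled by transcript length and library size, so levels of different genes can be compared. Per-library values are given in the order WT3, Rescue3.34, KO3.34, KO2.6, and then XENB1, XEN5. Differences are on the log2(FPKM + 1) scale, on which changes at low levels come out too small, and are given with their standard error (SE) and limma's adjusted p over all genes tested. A gene is called when this adjusted p is under 0.05. The table holds no read counts, so depth is unknown and low values have no known precision.

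Zfp281 itself stood at 28.5, 27.7, 3.92 and 0 FPKM in ESCs, at 25.1, 27.2, 1.29 and 0 at cXENp1, at 34.0, 38.6, 3.96 and 0.559 at cXENp3 and at 10.6 and 12.5 in the XEN lines, so all 6 KO libraries were below all 8 others. The summed level of 12 pluripotency markers ran from 7684 to 10175 FPKM in the 4 ESC libraries and from 333 to 1096 at cXENp1. At cXENp3 it was 7981 and 4165 in WT3 and Rescue3.34, against 1161 and 368 in KO3.34 and KO2.6. The summed level of 14 XEN markers at cXENp3 was 132 and 641 in the Zfp281-present lines and 4115 and 2944 in the KO lines. In both KO lines and both XEN lines these sums leave out Sparc, Lama1 and Col4a1, which are listed at exactly 0 there. KO2.6 stood apart from the other ESCs, with 509 FPKM of XEN markers against 62.3 to 78.6. The 14 feeder fibroblast markers summed to 39.5, 1306, 319 and 422 FPKM at cXENp3, and to 692 and 596 in the XEN lines. Rescue3.34 at cXENp3 was thus the highest for this list, with Col1a1 at 509 FPKM and Col3a1 at 305, and Lum and Fap, listed at 0 in WT3 at that stage, at 8.32 and 0.333. In bulk samples fewer cells of a type and less RNA per cell cannot be told apart.

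Of the 48 genes, 43 reached 1 FPKM in at least 1 library and 34 reached 5 FPKM, while 11 were at 1 FPKM or more in all 14 libraries. All 10 Frizzleds reached 5 FPKM somewhere, but only 7 of the 19 ligands did. The 5 genes under 1 FPKM in every library were Wnt1, Wnt2b, Wnt8b, Wnt9b and Wnt10a. In the heat map of all 48 genes the ESC columns are dark across most ligands and bright for Fzd5, Fzd7 and Sfrp1, and the cXENp1 columns are bright for Fzd2 and Wls.

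**Figure D1:**
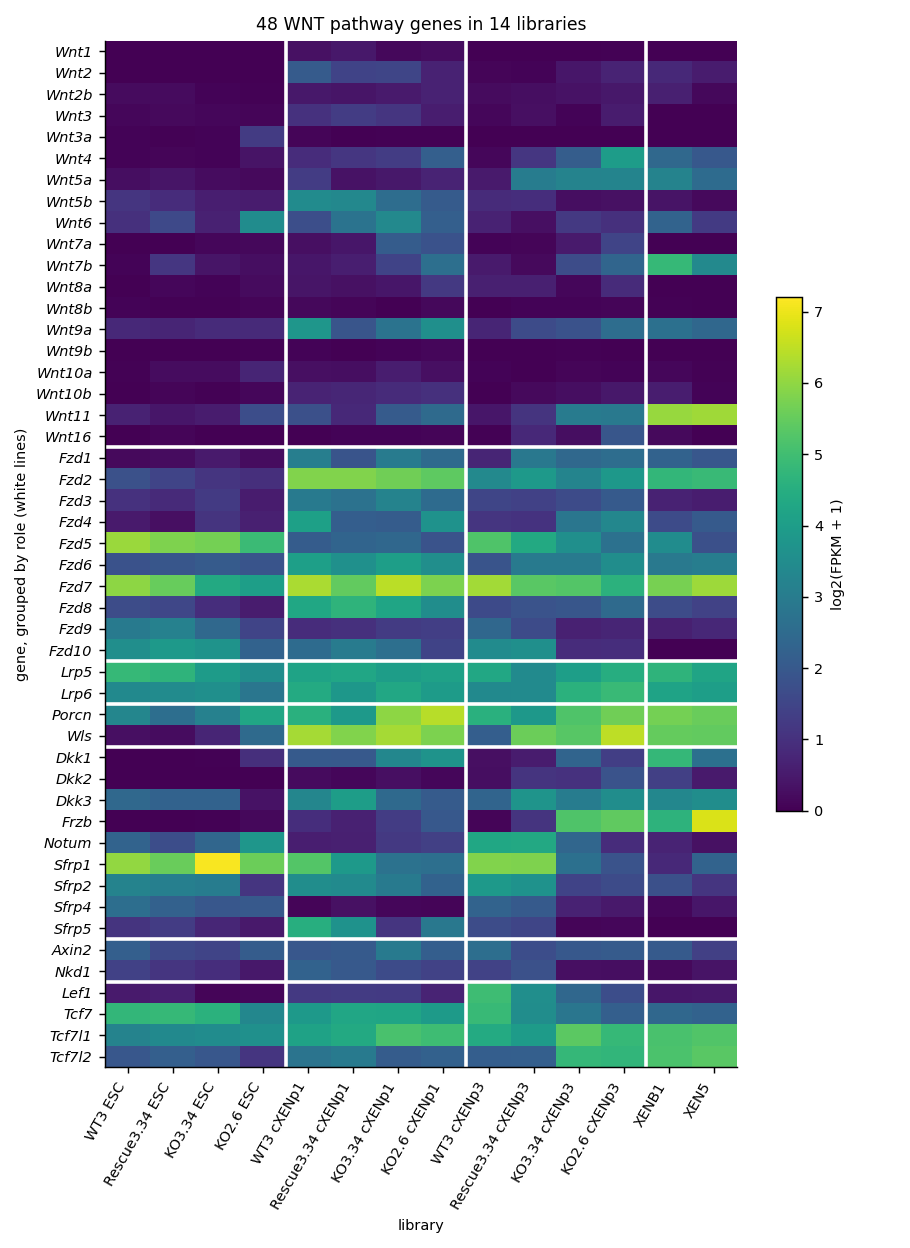
Levels of all 48 genes (rows, grouped by role with white lines between groups) in the 14 libraries (columns, white lines between stages), as log2(FPKM + 1). Frzb, Tcf7l2 and Wnt11 are brighter in the KO columns at cXENp3 and in the XEN columns than in the Zfp281-present columns at cXENp3.

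Promoters of 6 of the genes are shown because these members stand for the output of the pathway (Axin2 and Lef1) or are, among those with a sequence, the ones that differed most between KO and Zfp281-present lines at cXENp3 (Frzb, Fzd10, Tcf7l2 and Wnt4). Each runs from 250 bases before to 50 after the gene's most 5′ listed start, 5′ to 3′ on the gene's strand, from RefSeq on build GRCm38.p6. The positions are chr11:108920099-108920398 (plus strand), chr3:131110047-131110346 (plus), chr2:80447347-80447646 (minus), chr5:128600856-128601155 (plus), chr19:55741560-55741859 (plus) and chr4:137277385-137277684 (plus). Capitals mark matches to 3 motifs searched on both strands. The TCF/LEF core was spelled TCAAAG. The core recognised by GATA factors, which are central to XEN cells, was spelled AGATAA. The G-rich run, of the kind bound by Zfp281, was spelled GGGGAGGG.
Axin2: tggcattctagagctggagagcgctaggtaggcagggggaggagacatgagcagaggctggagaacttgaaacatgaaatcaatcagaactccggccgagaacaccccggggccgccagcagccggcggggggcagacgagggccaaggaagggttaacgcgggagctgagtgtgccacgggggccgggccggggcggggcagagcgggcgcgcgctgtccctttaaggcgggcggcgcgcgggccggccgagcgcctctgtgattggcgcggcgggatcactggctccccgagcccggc
Lef1: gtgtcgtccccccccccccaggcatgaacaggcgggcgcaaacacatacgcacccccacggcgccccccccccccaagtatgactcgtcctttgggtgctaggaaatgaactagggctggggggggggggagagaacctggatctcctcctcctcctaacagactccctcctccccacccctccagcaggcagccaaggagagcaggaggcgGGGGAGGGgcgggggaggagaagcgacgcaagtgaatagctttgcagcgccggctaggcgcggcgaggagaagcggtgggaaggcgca
Frzb: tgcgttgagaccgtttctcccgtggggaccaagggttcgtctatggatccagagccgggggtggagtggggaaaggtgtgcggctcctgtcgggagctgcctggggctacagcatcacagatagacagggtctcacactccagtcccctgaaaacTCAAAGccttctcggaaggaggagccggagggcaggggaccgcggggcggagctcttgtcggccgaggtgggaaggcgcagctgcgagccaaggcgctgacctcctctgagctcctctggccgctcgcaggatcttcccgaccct
Fzd10: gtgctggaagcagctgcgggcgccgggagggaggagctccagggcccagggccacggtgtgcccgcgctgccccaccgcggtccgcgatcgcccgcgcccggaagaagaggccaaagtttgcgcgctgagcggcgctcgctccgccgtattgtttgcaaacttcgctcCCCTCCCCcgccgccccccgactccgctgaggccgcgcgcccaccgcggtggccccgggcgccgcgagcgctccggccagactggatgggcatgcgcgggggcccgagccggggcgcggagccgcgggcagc
Tcf7l2: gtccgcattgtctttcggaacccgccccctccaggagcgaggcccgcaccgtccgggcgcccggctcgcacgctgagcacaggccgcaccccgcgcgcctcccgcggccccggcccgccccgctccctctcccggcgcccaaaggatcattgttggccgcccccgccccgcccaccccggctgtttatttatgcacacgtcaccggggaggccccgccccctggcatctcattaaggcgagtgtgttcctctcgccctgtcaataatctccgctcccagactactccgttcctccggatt
Wnt4: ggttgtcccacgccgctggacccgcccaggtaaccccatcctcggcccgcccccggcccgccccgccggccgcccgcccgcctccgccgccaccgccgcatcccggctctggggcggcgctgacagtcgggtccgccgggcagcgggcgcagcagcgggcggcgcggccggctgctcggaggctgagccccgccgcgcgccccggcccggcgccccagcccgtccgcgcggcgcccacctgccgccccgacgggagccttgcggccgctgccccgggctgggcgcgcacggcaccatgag

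Lef1 held a G-rich run that starts 38 bases before the gene's start, and Fzd10 held 1 on the other strand, 82 bases before. Frzb held a TCF/LEF core 95 bases before its start. None of the 3 motifs was in the Axin2, Tcf7l2 or Wnt4 windows. Promoters of 33 of the 48 genes were in the RefSeq table. The G-rich run was in 8 of them (24.2%; Fzd7, Fzd10, Lef1, Tcf7l1, Wnt1, Wnt6, Wnt9a and Wnt9b), against 10.4% of 27025 promoters of the same length. The TCF/LEF core was in 4 (12.1%; Dkk1, Frzb, Fzd1 and Wnt11) against 16.2%, and the GATA core in 3 (9.09%; Fzd1, Sfrp5 and Wnt8b) against 11.4%. These are matches of letters, not sites of binding, and the 3 motifs do not overlap each other in the windows printed.

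Ligands were scarce in ESCs. The 19 of them summed to 4.25, 6.23, 3.54 and 17.0 FPKM in ESCs, 36.7, 26.1, 35.5 and 38.8 at cXENp1, 4.48, 14.9, 26.7 and 47.6 at cXENp3, and 119 and 94.2 in the XEN lines. Every cXENp1 library was thus above every ESC library, and at cXENp3 both KO libraries were above both Zfp281-present ones. The leading ligand changed with the stage, as the stacked bars of ligand levels show: Wnt11 made up 56.5% and 74.9% of the sum in XENB1 and XEN5, while at cXENp1 Wnt9a led in WT3 and Wnt5b in Rescue3.34.

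**Figure D2:**
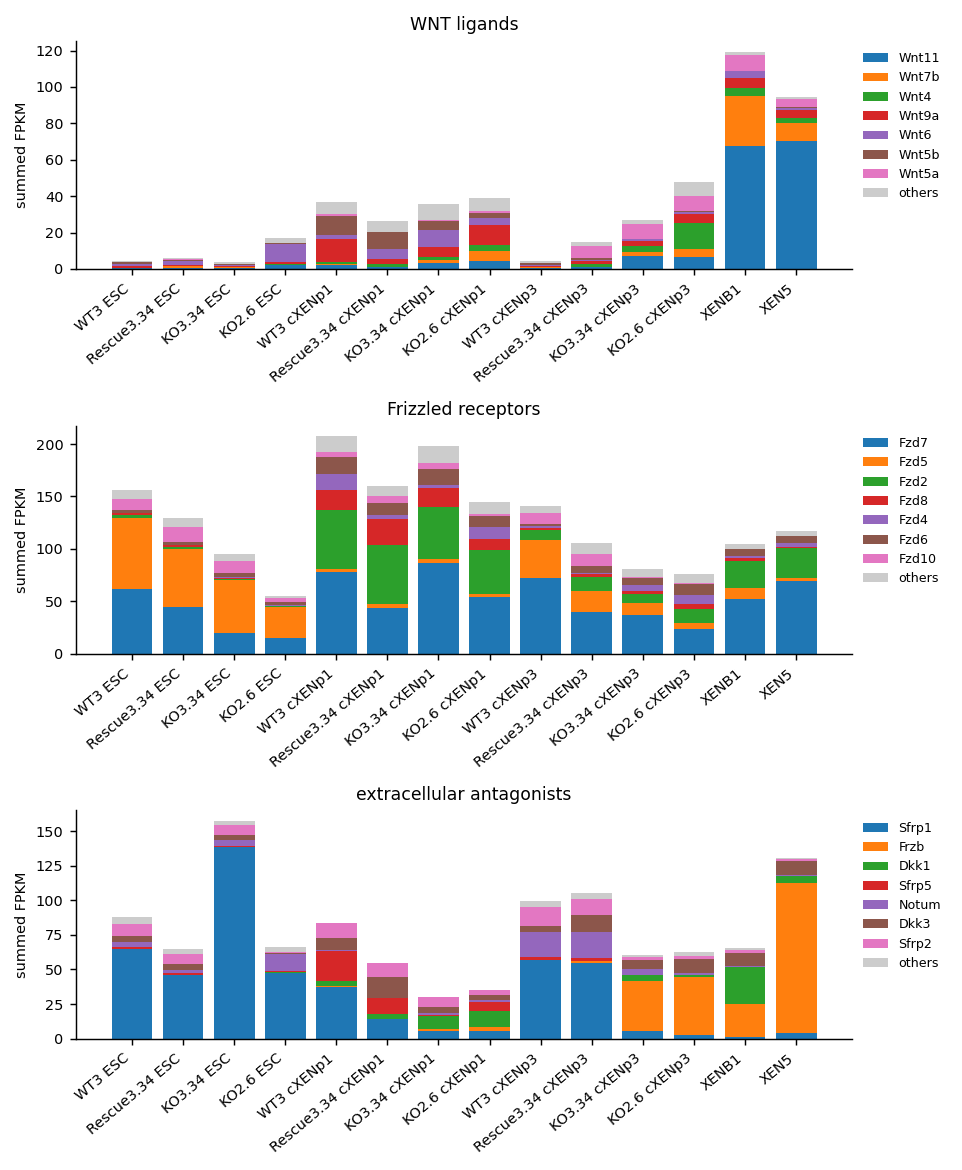
Summed FPKM (y axis, linear) of the ligands, Frizzleds and extracellular antagonists in each library, with the 7 genes that reach the highest level in colour and the others in grey. The antagonist bars are mostly Sfrp1 in the ESC libraries and mostly Frzb in XEN5 and the KO libraries at cXENp3.

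Wnt11, a ligand known mainly for signalling without beta-catenin (chr7:105987355-106003257 on mm9), stood at 0.605, 0.354, 0.472 and 2.23 FPKM in ESCs, at 2.38, 0.784, 3.22 and 4.58 at cXENp1, at 0.366, 1.10, 7.02 and 6.59 at cXENp3 and at 67.4 and 70.5 in XENB1 and XEN5. The XEN lines were far above all other libraries, and at cXENp3 the KO lines were above the Zfp281-present lines. The difference was 5.29 (SE 0.38, adjusted p = 5.67e-05) for XEN lines minus ESCs and 2.20 (SE 0.42, adjusted p = 0.00309) for KO minus Zfp281-present at cXENp3. KO cells at cXENp3 nonetheless stayed below the XEN lines, a difference of -3.16 (SE 0.40, adjusted p = 0.00205). Wnt7b was the other ligand prominent in XEN lines, at 0.0505, 1.19, 0.316 and 0.194 FPKM in ESCs, at 0.350, 0.515, 1.73 and 5.23 at cXENp1, at 0.442, 0.136, 2.21 and 4.12 at cXENp3 and at 27.5 and 9.44 in XENB1 and XEN5. Its groups did not overlap in XEN lines against ESCs, with a difference of 3.65 (SE 0.46, adjusted p = 0.000685), nor between the KO and Zfp281-present classes at cXENp3, with 1.66 (SE 0.44, adjusted p = 0.0141).

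Wnt4 stood at 0.0571, 0.0648, 0.0400 and 0.309 FPKM in ESCs, at 0.889, 1.18, 1.42 and 3.51 at cXENp1, at 0.0902, 1.20, 3.39 and 14.7 at cXENp3 and at 4.40 and 2.98 in XENB1 and XEN5. KO2.6 at cXENp3 was the highest library, and the KO lines did not overlap the Zfp281-present lines there, with a difference of 2.42 (SE 0.55, adjusted p = 0.00726). Wnt4 was also higher in XEN lines than in ESCs by 2.06 (SE 0.24, adjusted p = 0.00045), and in KO lines the difference from cXENp1 to cXENp3 was 1.33 (SE 0.39, adjusted p = 0.0432), although KO2.6 at cXENp1 was above KO3.34 at cXENp3. This last call held in 2 of 5 other settings and in 0 of the 4 fits that leave out a line. Wnt5a, like Wnt11 known mainly for signalling without beta-catenin, stood at 0.211, 0.339, 0.170 and 0.137 FPKM in ESCs, at 1.41, 0.268, 0.374 and 0.633 at cXENp1, at 0.447, 7.09, 8.33 and 8.50 at cXENp3 and at 8.36 and 4.78 in XENB1 and XEN5. WT3 was low at cXENp3 and the other 3 lines were high, with Rescue3.34 just below the KO lines. Wnt5a rose from cXENp1 to cXENp3 in KO lines by 2.65 (SE 0.65, adjusted p = 0.0233), and KO minus Zfp281-present at cXENp3 was 1.46 (SE 0.63, adjusted p = 0.0862), which was not called. The fibroblast markers of the KO lines went from 42.7 and 25.0 FPKM to 319 and 422 over the same step, and their part in the Wnt5a difference was not tested. Rescue3.34, the Zfp281-present line with high Wnt5a, is also the library with 1306 FPKM of fibroblast markers, against 39.5 in WT3, and the part of those cells in its Wnt5a level was not tested.

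A different set of ligands was at its highest at cXENp1. Wnt5b stood at 1.18, 0.884, 0.507 and 0.452 FPKM in ESCs, at 10.2, 9.32, 4.96 and 3.18 at cXENp1, at 0.838, 0.936, 0.193 and 0.245 at cXENp3 and at 0.290 and 0.143 in XENB1 and XEN5. All 4 libraries at cXENp1 were above every other library. It rose from ESCs by 2.08 (SE 0.22, adjusted p = 0.000455) and fell from cXENp1 to cXENp3 in both classes, with differences of -2.51 (SE 0.24, adjusted p = 0.00221) in Zfp281-present lines and -2.03 (SE 0.24, adjusted p = 0.00144) in KO lines. Wnt9a stood at 0.767, 0.670, 0.862 and 0.805 FPKM in ESCs, at 12.7, 2.76, 5.65 and 10.96 at cXENp1, at 0.673, 2.13, 2.54 and 4.96 at cXENp3 and at 5.37 and 4.33 in XENB1 and XEN5. It rose from ESCs to cXENp1 by 2.17 (SE 0.41, adjusted p = 0.00583), and XEN lines were above ESCs by 1.72 (SE 0.22, adjusted p = 0.0008). Wnt2 was listed at 0 in all 4 ESC libraries and ran from 0.614 to 3.15 FPKM at cXENp1, where it was called higher than in ESCs. Wnt3, a ligand of the primitive streak, was called higher at cXENp1 too, at 0.482 to 1.44 FPKM against 0.0676 to 0.129 in ESCs, a difference of 0.87 (SE 0.21, adjusted p = 0.0165). Wnt7a rose over the same step by 1.09 (SE 0.32, adjusted p = 0.0321), with 0.230 to 3.28 FPKM against 0 to 0.118, and at cXENp3 it was higher in KO lines by 0.93 (SE 0.29, adjusted p = 0.0288).

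Wnt6 was called in no comparison, but stood at 10.2 FPKM in KO2.6 ESCs against 0.580 to 1.98 in the other 3 ESC lines. Wnt3a reached 1 FPKM only in the same library, at 1.39 against 0.0641 or less in the other 13. Pairs of WNT genes lie next to each other in the mouse genome, and the levels within a pair differed. On mm9, Wnt3a (chr11:59061544-59104253) and Wnt9a (chr11:59120432-59147054) are 16.2 kb apart, yet Wnt3a was at 0.0641 FPKM or less at cXENp1 where Wnt9a was at 2.76 to 12.7. Wnt6 and Wnt10a are 6.70 kb apart on chromosome 1, and both had their highest value in KO2.6 ESCs, 10.2 and 0.681 FPKM. Wnt3 lies 24.4 kb from Wnt9b, which stayed at 0.0983 FPKM or less. Wnt10b, 11.7 kb from Wnt1, reached 1.01 FPKM in KO2.6 at cXENp1, while Wnt1 stayed at 0.384 or less. Of the other ligands, Wnt2b stayed at 0.616 FPKM or less and Wnt8b at 0.124 or less, and Wnt8a reached 1.28 and Wnt16 2.79.

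Both genes for the proteins that make ligands ready for release were higher at cXENp1 than in ESCs. Wls (chr3:159502659-159598139) stood at 0.231, 0.183, 0.674 and 4.65 FPKM in ESCs, at 74.6, 56.6, 73.8 and 53.8 at cXENp1, at 3.43, 46.6, 39.4 and 88.0 at cXENp3 and at 44.2 and 43.4 in XENB1 and XEN5. All 4 cXENp1 libraries were above all 4 ESC libraries, by 5.08 (SE 0.66, adjusted p = 0.0011), and XEN lines were above ESCs by 4.54 (SE 0.61, adjusted p = 0.0009). At cXENp3 Wls was low only in WT3, and KO minus Zfp281-present was 2.05 (SE 0.92, adjusted p = 0.101), not called. As for Wnt5a, the Zfp281-present line with high Wls is Rescue3.34, the library with the most fibroblast marker RNA, and its part was not tested. Porcn, on the X chromosome (chrX:7770976-7783651), stood at 8.80, 5.09, 7.99 and 18.3 FPKM in ESCs, at 22.8, 13.7, 62.5 and 85.6 at cXENp1, at 23.0, 13.4, 36.3 and 48.5 at cXENp3 and at 51.1 and 45.7 in XENB1 and XEN5. It was higher at cXENp1 than in ESCs by 1.89 (SE 0.26, adjusted p = 0.00141), although KO2.6 ESCs were above Rescue3.34 at cXENp1, and in XEN lines than in ESCs by 2.29 (SE 0.42, adjusted p = 0.00384). The 2 KO libraries were above both Zfp281-present libraries at cXENp1 and again at cXENp3. KO minus Zfp281-present was 1.99 (SE 0.42, adjusted p = 0.0882) at cXENp1, not called, and 1.21 (SE 0.42, adjusted p = 0.0437) at cXENp3, while in KO lines cXENp3 minus cXENp1 was -0.79 (SE 0.22, adjusted p = 0.0359), a call that held in 0 of the 4 fits that leave out a line.

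The make-up of the Frizzled receptors differed between stages. In ESCs Fzd5 and Fzd7 together made most of the Frizzled sum, with Fzd5 at 42.6% to 53.1%. At cXENp1 Fzd7 and Fzd2 were the leading pair in all 4 lines, and the same pair led in XENB1 and XEN5, where Fzd7 was 49.9% and 59.6% of the sum. The Frizzled sum was 156, 129.7, 94.9 and 55.3 FPKM in ESCs and 207, 159.5, 198 and 144 at cXENp1.

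Fzd5 (chr1:64777132-64784324) stood at 67.9, 55.3, 50.4 and 29.0 FPKM in ESCs, at 3.31, 4.005, 4.32 and 2.60 at cXENp1, at 36.3, 19.8, 11.1 and 5.44 at cXENp3 and at 10.3 and 2.36 in XENB1 and XEN5. It was high in all ESCs and low in all lines at cXENp1, a difference of -3.45 (SE 0.32, adjusted p = 0.000282), and XEN lines were below ESCs, a difference of -3.00 (SE 0.51, adjusted p = 0.0026). From cXENp1 to cXENp3 it rose in Zfp281-present lines by 2.58 (SE 0.26, adjusted p = 0.00266) and in KO lines by 1.01 (SE 0.26, adjusted p = 0.0298). The rise was smaller in KO lines, a difference of -1.57 (SE 0.37, adjusted p = 0.0347) in the test of that difference, and at cXENp3 KO lines were below, a difference of -1.66 (SE 0.40, adjusted p = 0.00893). Fzd2 (chr11:102465745-102469372) went the other way, at 2.46, 1.78, 1.16 and 0.975 FPKM in ESCs, at 56.4, 56.3, 49.1 and 41.9 at cXENp1, at 9.50, 13.9, 8.48 and 13.3 at cXENp3 and at 26.3 and 28.6 in XENB1 and XEN5. It rose from ESCs to cXENp1 by 4.35 (SE 0.22, adjusted p = 1.10e-05), with every cXENp1 library at 41.9 FPKM or more, and fell in both classes by cXENp3, with -2.20 (SE 0.28, adjusted p = 0.00422) and -1.99 (SE 0.28, adjusted p = 0.00281). KO lines at cXENp3 were below the XEN lines, a difference of -1.29 (SE 0.25, adjusted p = 0.0192), and the XEN lines were above ESCs by 3.49 (SE 0.30, adjusted p = 0.000119). KO and Zfp281-present lines overlapped at cXENp3, with a difference of -0.10 (SE 0.26, adjusted p = 0.782).

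Fzd7, a Frizzled common in ESCs, stood at 61.6, 44.7, 19.9 and 15.4 FPKM in ESCs, at 77.6, 43.7, 86.3 and 54.3 at cXENp1, at 72.4, 39.7, 37.4 and 23.7 at cXENp3 and at 52.1 and 69.5 in XENB1 and XEN5. In ESCs the KO lines were below the Zfp281-present lines, a difference of -1.53 (SE 0.39, adjusted p = 0.0717), which was not called. It rose to cXENp1 by 1.03 (SE 0.32, adjusted p = 0.0405), with overlapping libraries, and fell from cXENp1 to cXENp3 in KO lines, a difference of -1.17 (SE 0.19, adjusted p = 0.00452), while in Zfp281-present lines the difference was -0.12 (SE 0.19, adjusted p = 0.715), not called. The difference between these 2 changes was -1.06 (SE 0.27, adjusted p = 0.0411). Fzd8 stood at 2.16, 1.89, 0.923 and 0.450 FPKM in ESCs, at 18.4, 24.5, 18.0 and 10.6 at cXENp1, at 2.07, 2.61, 2.81 and 4.62 at cXENp3 and at 2.22 and 1.69 in XENB1 and XEN5. It was high at cXENp1 in every line, with a rise of 3.02 (SE 0.33, adjusted p = 0.000525) and later falls of -2.74 (SE 0.33, adjusted p = 0.0036) in Zfp281-present lines and -1.68 (SE 0.33, adjusted p = 0.00946) in KO lines. Fzd3 followed the same course at lower values, 1.05, 0.815, 1.36 and 0.450 FPKM in ESCs, at 6.69, 5.51, 8.31 and 4.69 at cXENp1, at 1.81, 1.64, 2.13 and 3.08 at cXENp3 and at 0.610 and 0.480 in XENB1 and XEN5. Its rise was 1.93 (SE 0.24, adjusted p = 0.000868) and its later falls -1.38 (SE 0.31, adjusted p = 0.0295) and -1.02 (SE 0.31, adjusted p = 0.0476).

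Fzd10 (chr5:129106981-129109968) stood at 10.8, 13.9, 12.1 and 3.76 FPKM in ESCs, at 4.73, 7.04, 5.21 and 1.73 at cXENp1, at 10.0, 11.1, 0.900 and 0.903 at cXENp3 and at 0 and 0 in XENB1 and XEN5. It was listed at 0 in both XEN lines, was called lower there than in ESCs, and was below 1 FPKM in both KO lines at cXENp3. KO minus Zfp281-present at cXENp3 was -2.60 (SE 0.48, adjusted p = 0.00275), and the change from cXENp1 differed between the classes by -1.88 (SE 0.49, adjusted p = 0.0456). Fzd9 stood at 6.69, 8.05, 4.37 and 1.81 FPKM in ESCs, at 0.898, 1.01, 1.37 and 1.52 at cXENp1, at 4.29, 2.15, 0.573 and 0.661 at cXENp3 and at 0.544 and 0.755 in XENB1 and XEN5. It was lower at cXENp1 than in ESCs, a difference of -1.38 (SE 0.38, adjusted p = 0.026), lower in XEN lines, a difference of -1.79 (SE 0.46, adjusted p = 0.0163), and lower in KO lines at cXENp3, a difference of -1.34 (SE 0.34, adjusted p = 0.0115). Fzd5, Fzd9 and Fzd10 were thus the 3 Frizzleds that were lower in KO lines at cXENp3, and the same 3 were lower in XEN lines than in ESCs.

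Fzd4, which is also the receptor of Norrin, was the Frizzled that was higher in KO lines at cXENp3, at 0.435, 0.238, 1.11 and 0.551 FPKM in ESCs, at 15.9, 3.43, 3.30 and 11.6 at cXENp1, at 1.17, 1.07, 6.11 and 9.02 at cXENp3 and at 2.12 and 3.10 in XENB1 and XEN5. Its KO difference at cXENp3 was 1.99 (SE 0.61, adjusted p = 0.0257), and it was higher than in ESCs at cXENp1 by 2.36 (SE 0.52, adjusted p = 0.0111) and in XEN lines by 1.20 (SE 0.28, adjusted p = 0.0111). Fzd1 stood at 0.136, 0.171, 0.433 and 0.185 FPKM in ESCs, at 7.43, 2.66, 6.96 and 4.65 at cXENp1, at 0.667, 6.33, 4.35 and 4.92 at cXENp3 and at 3.78 and 2.87 in XENB1 and XEN5. It rose to cXENp1 by 2.32 (SE 0.44, adjusted p = 0.00578) and was higher in XEN lines by 1.81 (SE 0.23, adjusted p = 0.000676); at cXENp3 it was low in WT3 and highest in Rescue3.34, the library with the most fibroblast marker RNA, whose part was not tested. Fzd6 stood at 2.495, 2.83, 3.22 and 2.67 FPKM in ESCs, at 15.8, 11.4, 15.4 and 10.7 at cXENp1, at 2.68, 6.83, 6.74 and 10.4 at cXENp3 and at 6.51 and 7.25 in XENB1 and XEN5. It rose to cXENp1 by 1.90 (SE 0.31, adjusted p = 0.00308), and XEN lines were above ESCs by 1.05 (SE 0.24, adjusted p = 0.00934).

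The co-receptor Lrp6 stood at 9.76, 10.0, 10.98 and 6.08 FPKM in ESCs, at 20.04, 13.2, 18.9 and 14.4 at cXENp1, at 9.78, 9.83, 23.1 and 28.5 at cXENp3 and at 17.0 and 15.3 in XENB1 and XEN5. Both KO libraries at cXENp3 were above both Zfp281-present ones and above every other library, and the KO difference was 1.30 (SE 0.29, adjusted p = 0.00669). Lrp5 ran from 9.97 to 27.2 FPKM over the 14 libraries and was called in no comparison.

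The leading extracellular antagonist differed between stages and classes. Sfrp1 (chr8:24521974-24560104) stood at 65.0, 46.3, 139 and 47.3 FPKM in ESCs, at 37.3, 13.8, 5.59 and 5.19 at cXENp1, at 56.5, 54.8, 5.36 and 2.57 at cXENp3 and at 0.780 and 3.88 in XENB1 and XEN5. In ESCs it was the leading antagonist, with 71.0% to 88.1% of the antagonist sum, and in XEN lines it was below every ESC library, a difference of -4.52 (SE 0.54, adjusted p = 0.000529). It was lower at cXENp1 than in ESCs, a difference of -2.46 (SE 0.72, adjusted p = 0.0319), and at cXENp3 the Zfp281-present lines stood within the ESC range while the KO lines were below it, with a difference of -3.57 (SE 0.53, adjusted p = 0.000964). At cXENp1 the KO lines were already the lower 2 of 4, with -1.90 (SE 0.53, adjusted p = 0.185), not called, and the change from cXENp1 to cXENp3 did not pass the test of a difference between the classes, at -1.67 (SE 0.54, adjusted p = 0.0784).

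Frzb, also called Sfrp3 (chr2:80252127-80287553), had the opposite course, at 0, 0.0188, 0.0374 and 0.116 FPKM in ESCs, at 0.909, 0.571, 1.41 and 2.92 at cXENp1, at 0.0656, 1.10, 36.4 and 42.2 at cXENp3 and at 24.0 and 109 in XENB1 and XEN5. It was near 0 in all ESCs, and at cXENp3 high in both KO lines and low in both Zfp281-present lines, a difference of 4.75 (SE 0.34, adjusted p = 3.60e-05). In KO lines it rose from cXENp1 by 3.71 (SE 0.33, adjusted p = 0.000508), and the rise differed from that in Zfp281-present lines by 3.92 (SE 0.47, adjusted p = 0.00548). XEN lines were above ESCs by 5.65 (SE 0.52, adjusted p = 0.000159), and Frzb made up 36.5% and 83.2% of the antagonist sum in XENB1 and XEN5. KO lines at cXENp3 lay between XENB1 and XEN5.

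Notum (chr11:120515103-120522151), an enzyme that is itself a common target of beta-catenin, stood at 3.89, 2.25, 4.18 and 12.8 FPKM in ESCs, at 0.527, 0.553, 1.30 and 1.57 at cXENp1, at 18.4, 19.3, 4.19 and 0.873 at cXENp3 and at 0.651 and 0.246 in XENB1 and XEN5. It was high in WT3 and Rescue3.34 at cXENp3 and low in both lines at cXENp1, a rise of 3.69 (SE 0.57, adjusted p = 0.00801). In KO lines the same step gave 0.36 (SE 0.57, adjusted p = 0.681), not called, and the classes differed in their change by -3.33 (SE 0.80, adjusted p = 0.0355) and in their level at cXENp3 by -2.67 (SE 0.52, adjusted p = 0.00332). XEN lines were below ESCs, a difference of -2.02 (SE 0.53, adjusted p = 0.0178). Sfrp4 stood at 5.02, 3.74, 2.85 and 3.02 FPKM in ESCs, at 0.0685, 0.242, 0.0835 and 0.0613 at cXENp1, at 3.87, 3.12, 0.626 and 0.418 at cXENp3 and at 0.0989 and 0.340 in XENB1 and XEN5. It fell from ESCs to cXENp1, a difference of -2.04 (SE 0.31, adjusted p = 0.00214), came back in Zfp281-present lines by 1.96 (SE 0.24, adjusted p = 0.00381), and was lower in KO lines at cXENp3, a difference of -1.56 (SE 0.23, adjusted p = 0.000837), with -1.46 (SE 0.34, adjusted p = 0.034) between the 2 changes. Against ESCs, XEN lines were lower, a difference of -1.92 (SE 0.28, adjusted p = 0.00122).

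Sfrp2 stood at 8.26, 7.62, 7.15 and 1.15 FPKM in ESCs, at 10.6, 9.84, 6.72 and 3.80 at cXENp1, at 13.9, 11.6, 1.70 and 2.101 at cXENp3 and at 2.36 and 1.15 in XENB1 and XEN5. The KO lines were below the Zfp281-present lines at cXENp3, a difference of -2.24 (SE 0.50, adjusted p = 0.00658). Sfrp5 stood at 1.10, 1.43, 0.709 and 0.397 FPKM in ESCs, at 22.0, 11.7, 1.16 and 6.43 at cXENp1, at 2.19, 1.82, 0.0736 and 0.0866 at cXENp3 and at 0 and 0 in XENB1 and XEN5. It was highest at cXENp1, above ESCs by 2.15 (SE 0.42, adjusted p = 0.0064) although KO3.34 at cXENp1 lay within the ESC values, and then fell, with differences of -2.51 (SE 0.49, adjusted p = 0.0193) in Zfp281-present and -1.89 (SE 0.49, adjusted p = 0.0277) in KO lines. At cXENp3 it was lower in KO lines, a difference of -1.47 (SE 0.49, adjusted p = 0.0363), and it was listed at 0 in both XEN lines, where it was called lower than in ESCs. All 4 of Sfrp1, Sfrp2, Sfrp4 and Sfrp5 were thus lower in KO lines at cXENp3, and Frzb, the remaining member of that family, was higher.

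Dkk1, a Dickkopf antagonist of Lrp5 and Lrp6, stood at 0, 0, 0.0262 and 0.954 FPKM in ESCs, at 3.09, 3.01, 9.13 and 11.97 at cXENp1, at 0.235, 0.465, 4.04 and 1.51 at cXENp3 and at 27.0 and 5.35 in XENB1 and XEN5. It rose from ESCs to cXENp1 by 2.52 (SE 0.34, adjusted p = 0.0012), fell by cXENp3 in both classes, with differences of -1.59 (SE 0.41, adjusted p = 0.0468) and -1.69 (SE 0.41, adjusted p = 0.023), and was higher in KO than in Zfp281-present lines at cXENp3 by 1.40 (SE 0.38, adjusted p = 0.0146). XEN lines were above ESCs by 3.49 (SE 0.57, adjusted p = 0.00233). Dkk3 ran from 0.283 to 15.0 FPKM and was called in no comparison. Dkk2 was listed at 0 in all ESCs and reached 2.55 FPKM, in KO2.6 at cXENp3. In KO lines it rose from cXENp1 to cXENp3 by 1.21 (SE 0.33, adjusted p = 0.0334), a call not kept in any fit that leaves out a line.

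Of the TCF/LEF factors, Tcf7l2 (chr19:55816300-56008145) and Lef1 (chr3:130813215-130927275) separated the classes in opposite directions. Tcf7l2 stood at 2.91, 3.57, 2.84 and 1.18 FPKM in ESCs, at 5.87, 6.63, 3.26 and 3.68 at cXENp1, at 3.48, 3.53, 26.8 and 25.8 at cXENp3 and at 34.8 and 40.2 in XENB1 and XEN5. Both KO libraries at cXENp3 were above every ESC, cXENp1 and Zfp281-present library, with a difference of 2.60 (SE 0.28, adjusted p = 0.00024), and a rise from cXENp1 of 2.61 (SE 0.28, adjusted p = 0.000913). The rise differed between classes by 3.29 (SE 0.39, adjusted p = 0.0051), and XEN lines were above ESCs by 3.46 (SE 0.34, adjusted p = 0.000222). Lef1 stood at 0.421, 0.533, 0.0716 and 0.0974 FPKM in ESCs, at 1.29, 1.40, 1.35 and 0.657 at cXENp1, at 30.0, 10.8, 4.28 and 2.24 at cXENp3 and at 0.354 and 0.375 in XENB1 and XEN5. WT3 and Rescue3.34 at cXENp3 were the 2 highest libraries, after a rise from cXENp1 of 3.03 (SE 0.39, adjusted p = 0.0043). The KO lines at cXENp3 were below them, a difference of -2.21 (SE 0.42, adjusted p = 0.00304), and above the XEN lines by 1.60 (SE 0.40, adjusted p = 0.0496). The difference between the changes of the 2 classes was -1.96 (SE 0.56, adjusted p = 0.057), not called. With any 1 of the 4 libraries left out, Lef1 was not called against the XEN lines.

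Tcf7 stood at 26.2, 27.4, 23.0 and 8.99 FPKM in ESCs, at 13.5, 18.1, 18.0 and 14.2 at cXENp1, at 27.8, 10.6, 6.07 and 3.51 at cXENp3 and at 4.29 and 3.77 in XENB1 and XEN5. KO lines were below Zfp281-present lines at cXENp3, a difference of -1.69 (SE 0.48, adjusted p = 0.0186), having fallen from cXENp1, a difference of -1.59 (SE 0.40, adjusted p = 0.0262), and XEN lines were below ESCs, a difference of -2.05 (SE 0.44, adjusted p = 0.00731). Tcf7l1, the TCF factor best known as a repressor in ESCs, stood at 8.26, 9.76, 10.3 and 11.2 FPKM in ESCs, at 16.7, 19.6, 34.4 and 30.1 at cXENp1, at 20.2, 14.6, 40.5 and 27.2 at cXENp3 and at 34.1 and 36.6 in XENB1 and XEN5. It was higher at cXENp1 than in ESCs by 1.22 (SE 0.22, adjusted p = 0.00472), in XEN lines by 1.75 (SE 0.22, adjusted p = 0.000713), and in KO lines at cXENp3 by 0.91 (SE 0.24, adjusted p = 0.0147). In FPKM, Tcf7 was the leading TCF/LEF factor in 3 of 4 ESC lines, Lef1 in WT3 at cXENp3, Tcf7l1 in both KO lines at cXENp3, and Tcf7l2 in XENB1 and XEN5.

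Axin2, a scaffold of beta-catenin destruction that beta-catenin itself induces (chr11:108781663-108812095), stood at 3.54, 2.03, 1.77 and 3.30 FPKM in ESCs, at 2.84, 3.09, 6.89 and 3.46 at cXENp1, at 5.09, 2.28, 2.98 and 3.18 at cXENp3 and at 3.10 and 1.56 in XENB1 and XEN5. The lowest value was 1.56 in XEN5 and the highest 6.89 in KO3.34 at cXENp1, and Axin2 was called in none of the 9 comparisons. KO minus Zfp281-present at cXENp3 was -0.13 (SE 0.39, adjusted p = 0.81), cXENp1 minus ESC 0.44 (SE 0.30, adjusted p = 0.287) and XEN lines minus ESC -0.14 (SE 0.33, adjusted p = 0.751). Nkd1, a Dishevelled-binding inhibitor that is also a target of the pathway, ran from 0.135 to 3.78 FPKM. It was higher at cXENp1 than in ESCs by 0.86 (SE 0.24, adjusted p = 0.0276), a call not kept in any fit that leaves out a line. At cXENp3 it was lower in KO lines, at 0.209 to 0.233 FPKM against 1.68 to 2.46, a difference of -1.32 (SE 0.26, adjusted p = 0.00344). In KO lines it fell from cXENp1 to cXENp3, a difference of -1.23 (SE 0.26, adjusted p = 0.0135).

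**Figure D3:**
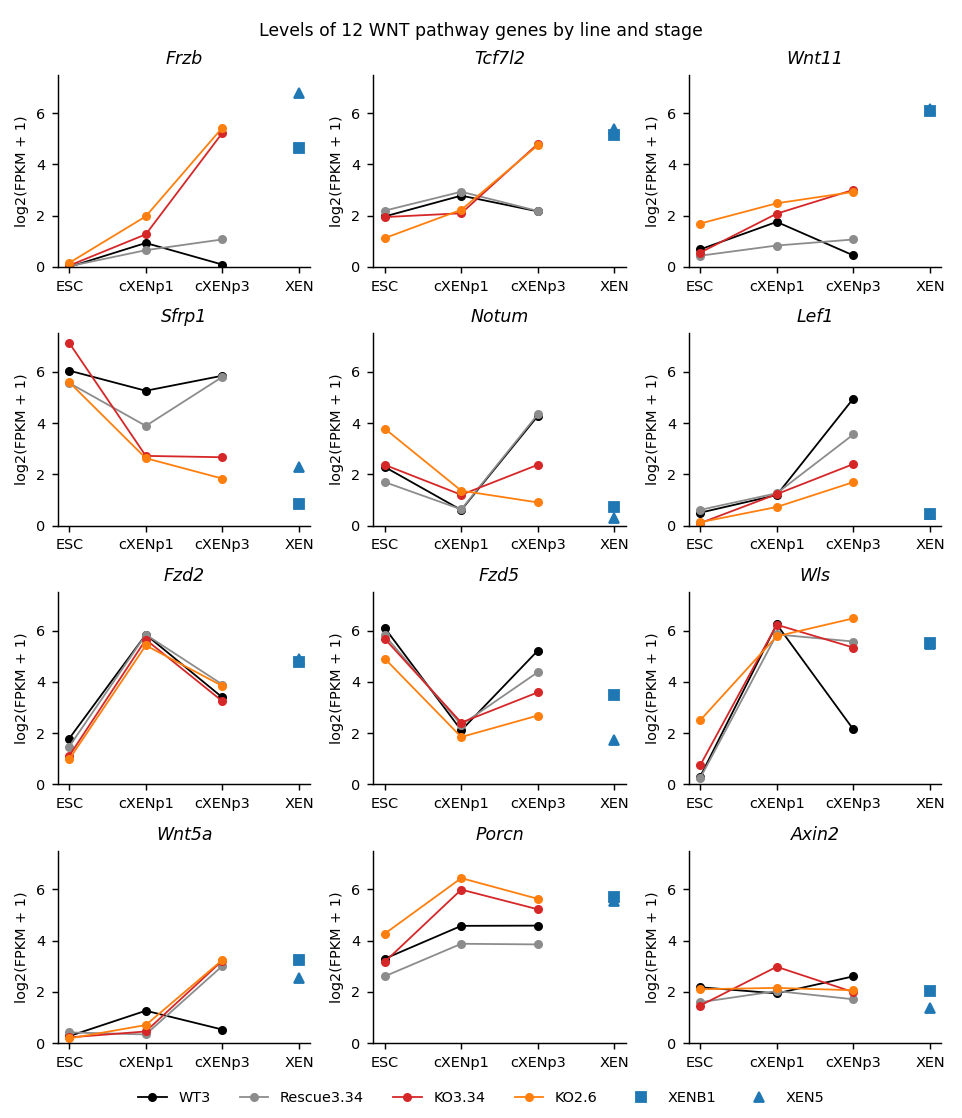
Levels of 12 genes as log2(FPKM + 1) by stage, 1 point per library, with lines joining the libraries of 1 ESC line and blue symbols for XENB1 and XEN5. Of the course libraries, Frzb and Tcf7l2 are highest in the KO lines at cXENp3, and Notum and Lef1 in the Zfp281-present lines at cXENp3, while Axin2 stays between 1.56 and 6.89 FPKM.

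The established XEN lines show where the differentiation is meant to end. Of the 33 genes tested against ESCs, 15 were higher in XEN lines and 8 were lower, and in all 23 the 2 groups did not overlap. Non-overlap was not counted over all genes, so it is not read as a result about the 23. Over all 12372 genes tested, 22.2% were higher and 19.7% lower. The median difference was 0.96 over the 33 genes and -0.02 over all genes. Of the 15 higher genes, 10 (Dkk1, Frzb, Fzd1, Fzd4, Wls, Wnt4, Wnt5a, Wnt7b, Wnt9a and Wnt11) passed the filter of 1 FPKM in 2 libraries only through the XEN lines, and 6 of the 8 lower ones (Fzd9, Fzd10, Notum, Sfrp1, Sfrp4 and Sfrp5) only through the ESCs. These counts and the median therefore describe the genes that passed, and say nothing of the direction of all 48. The other genes called were Fzd2, Fzd6, Porcn, Tcf7l1 and Tcf7l2, all higher, and Fzd5 and Tcf7, both lower. The XEN lines also held more fibroblast marker RNA, with unfiltered sums of 692 and 596 FPKM against 7.28 to 20.7 in ESCs. Of 12 tested markers 10 were higher and 0 lower, with a median of 3.89. Col1a2, Col3a1, Col6a3, Dcn, Fbn1, Postn, Prrx1 and Twist2 were under 1 FPKM in every ESC library and passed the filter only through the XEN lines. That count and median therefore say nothing of the direction of the list. The part of the fibroblast markers in these calls was not tested. Leaving out XENB1 or XEN5 leaves 1 XEN library, assumed to vary like the ESCs, and 27 genes that pass the filter, of which 12 and 11 were called; Frzb passed the filter in neither fit. Both XEN libraries carry the description prefix XH, as does 1 of the 4 ESC libraries (KO2.6), and the other 3 carry JH. With the prefix as a term, a fit added after the data had been seen, 24 genes were called, 20 of them among the 23, and Fzd4, Fzd9 and Sfrp5 were not. In that fit the XEN lines stand in effect against KO2.6 ESCs alone.

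After the step with retinoic acid and activin A, most Frizzleds differed from ESCs. Of 39 genes tested, 18 were higher at cXENp1 than in ESCs and 4 lower (Fzd5, Fzd9, Sfrp1 and Sfrp4), and in 19 of the 22, all but Fzd7, Porcn and Sfrp5, the groups did not overlap. The counts of higher and lower genes stand against 14.7% and 13.8% of 13191 genes. Non-overlap was not counted over all genes. The median was 0.95 over the 39 genes and 0 over all. Higher were 7 of the 10 Frizzleds, all of which were tested, and both ligand-processing genes. Of the 18 higher genes, 4 ligands (Wnt2, Wnt3, Wnt5b and Wnt7a) passed the filter only through the cXENp1 libraries, so the median and the count of ligands say nothing of their direction as a set. The fibroblast markers summed to 25.0 to 86.1 FPKM at cXENp1, and 4 of 13 tested were higher than in ESCs and 0 lower; their part in these calls was not tested. The 4 cXENp1 libraries carry the prefix XH and 3 of the 4 ESC libraries JH. With the prefix as a term, which leaves KO2.6 as the only line with both stages under 1 prefix, 5 genes were called, Fzd2, Fzd3, Fzd8 and Wnt5b higher and Fzd5 lower. Without KO3.34 or without Rescue3.34, 14 were called. Fzd7, Fzd9, Sfrp1, Wnt3 and Wnt7a were each called in 1 of the 4 fits that leave out a line, and Nkd1 in none of them.

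From cXENp1 to cXENp3 the classes parted. In Zfp281-present lines 4 genes rose (Fzd5, Lef1, Notum and Sfrp4) and 7 fell, beside 4.85% and 5.67% of all genes. In KO lines 6 rose (Dkk2, Frzb, Fzd5, Tcf7l2, Wnt4 and Wnt5a) and 10 fell, beside 12.9% and 9.58%. Wnt2, 1 of the 7 that fell in Zfp281-present lines, passed the filter only through those lines at cXENp1. Dkk2 passed it only through the KO lines at cXENp3. The directions of these genes are therefore no result of the counts. The change differed between the classes for 7 genes: it was higher in KO lines for Frzb and Tcf7l2, and lower for Fzd5, Fzd7, Fzd10, Notum and Sfrp4, beside 7.35% and 4.65% of all genes. Leaving out a line leaves its class with 1 line, assumed to vary like the others. Without WT3, 0 genes were called in Zfp281-present lines and 0 for the difference. Without Rescue3.34, the difference was called for Frzb, Tcf7l2 and Wnt5a. In KO lines, 7 were called without KO3.34 and 10 without each of the other 3 lines. Frzb, Fzd2, Fzd7, Tcf7l2 and Wnt5b were called each time, whereas Dkk2, Wnt4 and Porcn were called in 0 of these 4 fits. The same held for Fzd5, Fzd7 and Sfrp4 in the difference between the classes. Over the same step the fibroblast markers in KO lines went from 42.7 and 25.0 FPKM to 319 and 422. Of 13 tested, 5 were higher and 0 lower, with a median of 2.78. Col6a3, Postn and Prrx1 were among the 13 only through the KO lines at cXENp3. The part of the fibroblast markers in these calls was not tested.

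In ESCs and at cXENp1 no member passed the test between KO and Zfp281-present lines. In ESCs limma called 0 of 39 genes, beside 1.05% of all genes higher and 0.917% lower. There 4 genes had an unadjusted p under 0.05 (Fzd7, Fzd8, Fzd9 and Lrp5, all lower in KO), beside 2762 of all 13191 genes. At cXENp1 limma called 0 of 39, beside 0.364% and 0.121%. There 13 had an unadjusted p under 0.05, beside 1486 of all 13191 genes. Among these 13, Wnt7a was at 1.58 (SE 0.29, adjusted p = 0.0549), Wnt5b at -1.10 (SE 0.23, adjusted p = 0.0882) and Sfrp5 at -2.09 (SE 0.49, adjusted p = 0.114). Without KO3.34, so with KO2.6 as the only KO line, assumed to vary like the other groups, 8 genes were called in ESCs and 6 at cXENp1. KO2.6 is the line with the most XEN marker RNA at both stages, 509 and 2675 FPKM, and the part of this in those calls was not tested. In ESCs KO2.6 also carries the description prefix XH, while WT3 and Rescue3.34 carry JH. Prefix and class cannot be told apart in that ESC fit.

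At cXENp3, 22 of the 39 genes were called between KO and Zfp281-present lines, 11 higher and 11 lower in KO, and in all 22 the classes did not overlap. Non-overlap was not counted over all genes here either, so it is not read as a result about the 22. Over all genes 22.9% were higher and 19% lower. The median was 0.47 over the 39 genes and 0.01 over all genes. Higher in KO were the ligands Wnt4, Wnt7a, Wnt7b and Wnt11, Porcn, Lrp6, Fzd4, Dkk1, Frzb, Tcf7l1 and Tcf7l2. Frzb, Wnt7a and Wnt7b reached 1 FPKM in fewer than 2 Zfp281-present libraries of any stage, so they passed the filter only through KO libraries. The count of higher genes and the median therefore say nothing of the direction of the set. Lower were Fzd5, Fzd9, Fzd10, 5 of the 9 antagonists (Notum, Sfrp1, Sfrp2, Sfrp4 and Sfrp5), Nkd1, Lef1 and Tcf7. Leaving out a line leaves 1 line in its class, assumed to vary like the other groups. Without WT3, 5 were called (Frzb, Nkd1, Sfrp1, Sfrp4 and Tcf7l2). Without Rescue3.34, 15 were called, among them Fzd1, Wls and Wnt5a as higher, and Frzb, Tcf7l2, Sfrp1, Notum and Lef1 again. Rescue3.34 has the most fibroblast marker RNA (1306 FPKM), and without it KO lines with 319 and 422 FPKM are set against WT3 alone, with 39.5. With all 4 lines, 2 of 13 tested fibroblast markers were higher in KO, 0 were lower and the median was 0.63; their part in these calls was not tested.

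**Figure D4:**
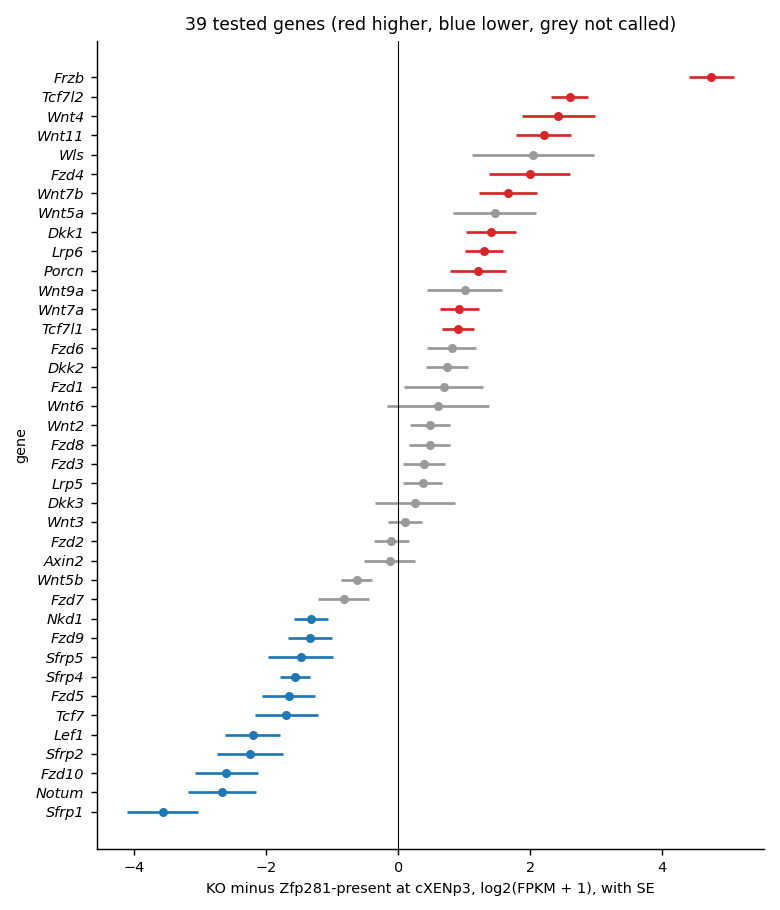
Difference between KO and Zfp281-present lines at cXENp3 (x axis, log2(FPKM + 1), bars are 1 SE) for the 39 tested genes in order of size. Frzb, at 4.75, lies at the top and Sfrp1, at -3.57, at the bottom.

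The genes that separated KO from Zfp281-present lines at cXENp3 were compared with those that separate XEN lines from ESCs. The groups set against each other in these 2 comparisons share no library. The ESC libraries did enter the filter and the shared spread of the cXENp3 fit, and they come from the same lines. The 2 sets of calls are thus not independent. Of the 15 genes higher in XEN lines, 9 (60%) were higher in KO lines at cXENp3, and these 9 were 81.8% of the 11 higher in KO. All 8 genes lower in XEN lines were lower in KO lines, which is 72.7% of the 11 lower there. No member was called in opposite directions. Of the 9, Dkk1, Frzb, Fzd4, Wnt4, Wnt7b and Wnt11 passed the filter against ESCs only through the XEN lines. Of the 8, Fzd9, Fzd10, Notum, Sfrp1, Sfrp4 and Sfrp5 passed it only through the ESCs. Frzb and Wnt7b passed that of the cXENp3 fit only through KO libraries. The filter thus fixed the direction of these genes, and the shares are not read as a result about the members. Over all genes, 69.6% of the 2747 higher in XEN lines were higher in KO lines, which is 63.4% of the 3016 higher there, and 63.4% of the 2434 lower in XEN lines were lower in KO lines, or 61.5% of 2512, with 34 called in opposite directions. The members' shares lie above and below these, and their difference from all genes was not tested. The other comparisons above share ESC, cXENp1 or cXENp3 libraries with each other, and their values stand side by side without such a count.

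**Figure D5:**
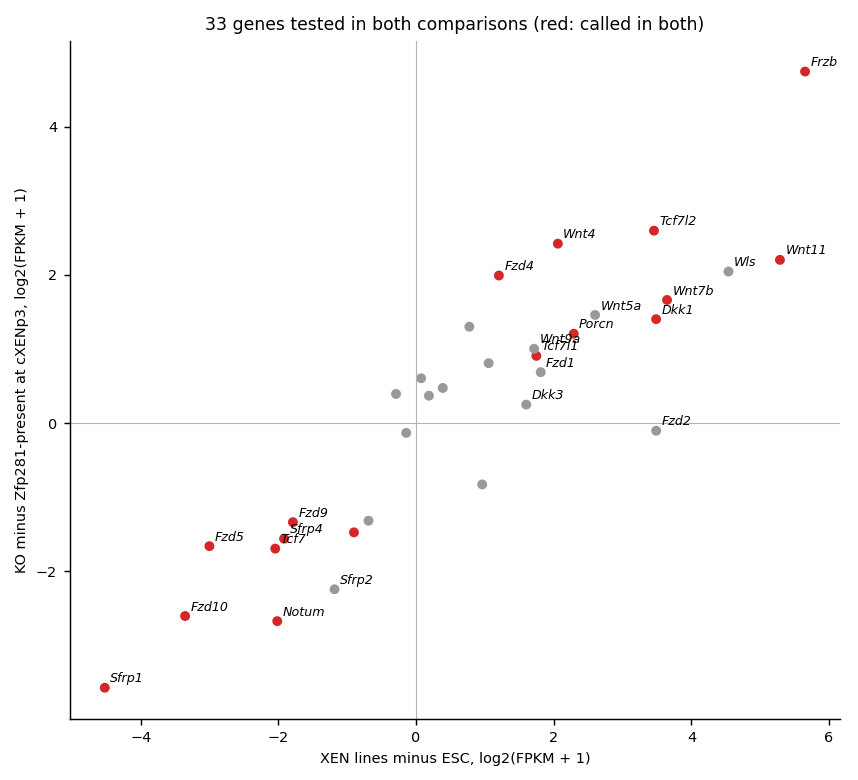
Difference of KO from Zfp281-present lines at cXENp3 (y axis) against the difference of XEN lines from ESCs (x axis), both in log2(FPKM + 1), for the 33 genes tested in both; the 17 called in both are red. The red points lie in the upper right (Frzb, Tcf7l2, Wnt11) or the lower left (Sfrp1, Fzd10, Notum), and Fzd2 lies near 0 on the y axis.

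Set directly against XENB1 and XEN5, KO lines at cXENp3 differed in 3 of 39 genes: Lef1 was higher, and Fzd2 and Wnt11 lower. Over all 13386 genes tested, 2.64% were higher and 1.48% lower. With 1 of the 4 libraries left out, its group holds 1 library, assumed to vary like the other groups. Wnt11 was called in each of these fits, and without XENB1 it was the 1 gene called.

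The rest of the pathway was followed through lists of other genes, of which Rnf43, Lgr5 and Apcdd1 stand in more than 1. None of these lists is read as apart from all genes, whose shares and medians stand beside each. In XEN lines against ESCs, Cd44, Gpc6, Msx2 and Prickle1 were under 1 FPKM in every ESC library and passed the filter only through the XEN lines. Ccdc88c, Cdx1 and Dixdc1 passed it only through the ESCs. The other listed genes were not followed in this way, so counts and medians of the lists say nothing of their direction as sets. Of 22 genes of the destruction complex and cytoplasmic relay, 21 were tested, and 4 were higher and 2 lower in KO than in Zfp281-present lines at cXENp3, beside 22.9% and 19% of all genes. Dvl3, which relays the signal from Frizzleds, differed by 1.47 (SE 0.20, adjusted p = 0.000657), Tnks, which marks Axin proteins for removal, by 1.65 (SE 0.31, adjusted p = 0.00297), and Dixdc1 by -1.49 (SE 0.38, adjusted p = 0.0116). In XEN lines against ESCs 2 of 21 were higher and 4 lower, beside 22.2% and 19.7% of all genes, with Ccdc88c at -2.43 (SE 0.44, adjusted p = 0.00368), Dixdc1 at -1.67 (SE 0.47, adjusted p = 0.024) and Csnk1e, a kinase of the relay, at -1.47 (SE 0.34, adjusted p = 0.0111). The median was 0.08 at cXENp3, beside 0.01 over all genes, and 0.24 in XEN lines, beside -0.02.

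Of 17 nuclear cofactors of beta-catenin, 2 were higher and 5 lower in KO lines at cXENp3, beside 22.9% and 19% of all genes. Bcl9l and its relative Bcl9, both adaptors of beta-catenin, differed by 1.77 (SE 0.39, adjusted p = 0.00577) and -1.30 (SE 0.28, adjusted p = 0.0056), and Tle6 by -1.22 (SE 0.26, adjusted p = 0.00525). In XEN lines 2 of 16 tested were higher and 3 lower, beside 22.2% and 19.7%, with Aes at -2.12 (SE 0.38, adjusted p = 0.00361), Tle4, a corepressor, at -1.59 (SE 0.34, adjusted p = 0.00728) and Bcl9l at 1.45 (SE 0.35, adjusted p = 0.0132). Of 9 R-spondins, LGR receptors and the ligases that remove Frizzleds, 8 were tested and only Rnf43, such a ligase, was called at cXENp3, by 1.53 (SE 0.31, adjusted p = 0.00418). In that fit Rnf43 reached 1 FPKM only in the KO lines at cXENp3, and passed the filter through them alone. In XEN lines 3 were tested and limma called 0, with 0 at an unadjusted p under 0.05, beside 6345 of all 12372 genes. At cXENp3 the median was -0.08 for the cofactors and 0.45 for this list, beside 0.01 over all genes.

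Of 16 alternative WNT receptors and genes of planar cell polarity, 15 were tested, and 5 were higher and 2 lower in KO lines at cXENp3, beside 22.9% and 19% of all genes. Prickle1 and Vangl1, core components of planar polarity, stood at 0.320, 5.28, 29.2 and 25.7 and at 11.3, 9.05, 54.6 and 56.4 FPKM at cXENp3 and at 15.7 and 17.2 and 45.1 and 41.0 in XEN lines. The differences at cXENp3 were 3.30 (SE 0.56, adjusted p = 0.00183) and 2.35 (SE 0.22, adjusted p = 0.000121). Ror2, a receptor of Wnt5a, was lower, a difference of -1.72 (SE 0.34, adjusted p = 0.00387). The median of the list was -0.15, beside 0.01 over all genes. In XEN lines 5 of 14 were higher and 2 lower, beside 22.2% and 19.7%, with Prickle1 at 3.55 (SE 0.25, adjusted p = 5.36e-05), Vangl1 at 1.97 (SE 0.23, adjusted p = 0.000443) and Ror2 at -2.47 (SE 0.37, adjusted p = 0.00155).

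Of 20 further antagonists and surface modulators in the table, 15 were tested, and 4 were higher and 4 lower in KO lines at cXENp3, beside 22.9% and 19% of all genes. Gpc6 and Gpc3, glypicans of the cell surface, went opposite ways, at 0.633, 2.45, 52.5 and 53.4 and 51.3, 78.4, 17.3 and 2.53 FPKM, with differences of 4.51 (SE 0.43, adjusted p = 0.000138) and -3.00 (SE 0.73, adjusted p = 0.0098). Dkkl1, a relative of the Dickkopf proteins, differed by 3.63 (SE 0.40, adjusted p = 0.000275). In XEN lines 5 of 12 were higher and 3 lower, beside 22.2% and 19.7%, with Gpc4 at 3.96 (SE 0.60, adjusted p = 0.00158), Gpc6 at 3.55 (SE 0.27, adjusted p = 6.37e-05) and Dact2 at -2.42 (SE 0.48, adjusted p = 0.00544). The median at cXENp3 was -0.31, beside 0.01 over all genes. Of 20 further transcriptional targets, 16 were tested, and 5 were higher and 3 lower in KO lines at cXENp3, beside the same 22.9% and 19%. Cd44, a hyaluronan receptor, differed by 2.82 (SE 0.56, adjusted p = 0.00372), Msx2 by 1.74 (SE 0.30, adjusted p = 0.00184) and Cdx1 by -2.23 (SE 0.48, adjusted p = 0.00556). In XEN lines 4 of 12 were higher and 2 lower, beside 22.2% and 19.7%, with Cd44 at 5.10 (SE 0.30, adjusted p = 2.31e-05) and Msx2 at 3.05 (SE 0.33, adjusted p = 0.000338), and Cdx1 listed at 0 in both. The median of the targets at cXENp3 was -0.04, beside 0.01 over all genes.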

How the data were processed

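The authors deposited 1 table of FPKM values for 14 polyA RNA-seq libraries. STAR 2.5.3, Cufflinks 2.1.1 and mm9 are named in the submitters' processing notes, with no role given; the header names no unit, and FPKM was taken from those tools and from the values. Coordinates of the table were shifted to count from 1. An exact 0 can be a failed estimate, so such genes are said to be listed at 0.

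Genes with at least 1 FPKM in 2 fitted libraries were tested on log2(FPKM + 1) with limma 3.58.1 (R 4.3.3; lmFit, eBayes with trend) with calls at 0.05 after Benjamini-Hochberg adjustment over all genes kept. Comparisons of stages within the ESC lines took line as a block, since each line gave 1 library per stage. XEN lines against ESCs took no block. KO and Zfp281-present lines were compared in 6 groups of 2 libraries, and the XEN lines with KO lines in 7. The fit was tested on simulated data.

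Of the 48 genes, values per library are given for those that reach 5 FPKM and are called somewhere, and for Axin2 and Lef1; of each pathway list, up to 3 called genes with the largest difference are named. Promoters come from the RefSeq table. The genes, lists and tests were chosen with earlier results of these data known. Other pseudocounts, filters, normalization, blocks and left-out lines were tried as alternatives, and the description prefix as a term in XEN lines against ESCs was added after the data had been seen.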

Additional observations from a re-analysis of the deposited data

Results flagged for a closer look

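The 31 genes in ESCs and at cXENp1 make 62 sets of 4 libraries, and sets with no value of 1 FPKM or more were left out. Left out were Dkk1, Frzb, Fzd1, Lef1, Wnt4, Wnt5a and Wnt9a in ESCs, and Sfrp4 at cXENp1. Of the sets examined, 5 held a library far from the other 3 by Dixon's criterion, and chance alone gives about 1 in 20 sets. KO2.6 ESCs accounted for 3 of them: Wls stood at 4.65 FPKM and Wnt11 at 2.23, above the other 3 ESC lines, and Sfrp2 at 1.15, below them. That library also held 509 FPKM of XEN markers against 62.3 to 78.6 in the others, whose part was not tested. It is also the only ESC library with the description prefix XH, and prefix and line cannot be told apart there. At cXENp1, Axin2 was high in KO3.34, at 6.89 FPKM, and Lef1 low in KO2.6, at 0.657.

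The change from cXENp1 to cXENp3 differed between KO and Zfp281-present lines for 7 genes in limma's test of that difference. It was higher in KO lines by 3.92 for Frzb and 3.29 for Tcf7l2 on the log2(FPKM + 1) scale. It was lower for Notum (-3.33), Fzd10 (-1.88), Fzd5 (-1.57), Sfrp4 (-1.46) and Fzd7 (-1.06).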

How the results depend on the processing

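Counts of called genes within 1.5 times the reported ones are not listed. Testing only genes with a mean of at least 5 FPKM, which leaves fewer genes, gave 13 for XEN lines against ESCs, 9 for cXENp1 against ESCs, 4 and 8 for cXENp3 against cXENp1 in Zfp281-present and KO lines, and 11 for KO against Zfp281-present at cXENp3. Testing every gene above 0 gave 3 for the difference between classes and 1 for KO at cXENp1, where quantile normalization gave 2 and limma without trend 1. KO at cXENp3 against XEN lines gave 6 with a pseudocount of 0.1 and 5 without trend. Without the line as a replicate block the difference between classes gave 4, and the description prefix as a term left 5 at cXENp1 against ESCs. Taking the line as a replicate block by a shared correlation changed no count of KO against Zfp281-present by over 1.5 times (22 at cXENp3). The causes were not tested.

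Leaving out 1 line or library at a time gave 11 to 27 calls for XEN lines against ESCs, 14 to 19 for cXENp1 against ESCs, 0 to 16 and 7 to 10 for cXENp3 against cXENp1 in Zfp281-present and KO lines, 0 to 5 for the difference between them, 0 to 8, 0 to 6 and 5 to 22 for KO against Zfp281-present in ESCs, at cXENp1 and at cXENp3, and 1 to 3 for KO at cXENp3 against XEN lines. Of 955 values of single genes over the alternatives, 782 kept their call, 173 lost it and 0 changed direction. Fits in which a called gene no longer passed the filter are not among the 955, so they do not count as lost calls. Classes of 2 lines, with 1 wild-type and 1 rescued line in a class, limit every comparison of KO lines, and the unknown depth limits values under 1 FPKM.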
